A study of Mus musculus with 6 samples.

Results

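The class I antigen presentation genes were followed here through 3 cultured tumour cell lines and a drug treatment. The set held 10 genes of the 24421 rows of the expression table, picked by symbol for their known roles. It comprised the class I heavy chains H2-K1, H2-D1 and H2-T23, the light chain B2m, the peptide transport and loading genes Tap1, Tap2 and Tapbp, and the immunoproteasome subunits Psmb8, Psmb9 and Psmb10. Messenger RNA was measured by RNA sequencing in the murine pancreatic ductal adenocarcinoma lines 2838c3, 6499c4 and 6419c5. Each line was exposed for 16 h to 250 nM G-1, a small molecule that activates the membrane oestrogen receptor GPER, or to DMSO as vehicle. Each combination of line and treatment had 1 library, so that over the 6 libraries the 3 lines served as the replicates of G-1 and both libraries of a line stood for that line. All 6 were cultured tumour cells, the labels name no immune or stromal cells beside them, and they give neither the mouse strain nor a batch or date. They do not say that the libraries came from separate cultures, so p-values measure the spread between these libraries, which may be technical.

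Class I molecules carry peptides from inside the cell to its surface, where CD8+ T cells inspect them. The proteasome cuts proteins into peptides, the TAP transporter moves the peptides into the endoplasmic reticulum, and tapasin holds the empty heavy chain and its light chain there until a peptide fits. Interferon gamma is known to raise the genes of this pathway together in many cell types and to exchange the catalytic subunits of the proteasome for immunoproteasome subunits, and loss of the pathway is a known route by which tumours escape T cells.

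Apart from B2m and Psmb10, the genes lie on mouse chromosome 17, in and beside the major histocompatibility complex (GRCm38, GENCODE M21). From the centromeric side these are Tapbp at chr17:33915899-33929292, H2-K1 at chr17:33996017-34000347, then the adjoining genes Psmb9 (chr17:34181987-34187764), Tap1 (chr17:34187553-34197225), Psmb8 (chr17:34197721-34201454) and Tap2 (chr17:34203527-34216321), and further on H2-D1 at chr17:35262730-35267499 and H2-T23 at chr17:36029773-36032855. B2m lies at chr2:122147686-122153083 and Psmb10 at chr8:105935735-105938444. H2-K1, Psmb9, H2-T23 and Psmb10 are on the minus strand and the others on the plus strand. The annotated ends of Psmb9 and Tap1 overlap on opposite strands, and no source used here says whether the authors' counting used strand.

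Promoters are shown for an abundant heavy chain, for the light chain and for a nearly silent transporter gene, so that the letters before their starts can be compared. RefSeq (GRCm38.p6) gave a start for 9 of the 10 genes, all but Tap2. Each window is the 250 bases before the annotated start, read 5′ to 3′ on the gene's own strand. Capitals mark matches on either strand to a core of the interferon-stimulated response element (ISRE), either GAANNGAAA or a longer form with 1 more A after the first GAA, and to the NF-kB consensus. The longer ISRE form was added after the windows had been read. The H2-K1 window is chr17:34000348-34000597 (minus strand), the B2m window is chr2:122147437-122147686 (plus strand) and the Tap1 window is chr17:34187306-34187555 (plus strand).
H2-K1: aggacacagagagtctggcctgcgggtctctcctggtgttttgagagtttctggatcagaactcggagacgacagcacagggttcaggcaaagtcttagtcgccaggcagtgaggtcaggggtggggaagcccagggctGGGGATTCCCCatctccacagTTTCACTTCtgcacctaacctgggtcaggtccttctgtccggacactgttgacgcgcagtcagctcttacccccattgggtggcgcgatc
B2m: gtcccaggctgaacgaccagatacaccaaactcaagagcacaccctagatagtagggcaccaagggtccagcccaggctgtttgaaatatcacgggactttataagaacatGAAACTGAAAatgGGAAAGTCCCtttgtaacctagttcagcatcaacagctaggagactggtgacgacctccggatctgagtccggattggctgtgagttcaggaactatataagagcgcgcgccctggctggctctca
Tap1: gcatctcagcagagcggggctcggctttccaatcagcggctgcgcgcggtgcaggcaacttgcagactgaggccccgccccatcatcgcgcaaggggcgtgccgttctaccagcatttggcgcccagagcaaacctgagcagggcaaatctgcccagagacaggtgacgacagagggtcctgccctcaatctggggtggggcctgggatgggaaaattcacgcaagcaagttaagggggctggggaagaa

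In the H2-K1 window the NF-kB match began at -111 from the start, and the reverse complement of the shorter ISRE core at -90. From another RefSeq start of H2-K1 the same matches lay at -125 and -104. H2-D1 had the same pair, the NF-kB match at -171 and the shorter ISRE core at -150. In H2-K1 and H2-D1 the NF-kB consensus matched in 2 overlapping frames, each on both strands, so that these are 4 matches to 1 stretch. B2m had the longer ISRE core at -139 and an NF-kB match on the strand opposite to the gene at -126. H2-T23 had the longer ISRE core on the opposite strand at -124 and no NF-kB match. Neither motif was found in the windows of Tap1, Tapbp, Psmb8, Psmb9 or Psmb10. The windows of H2-D1, Tapbp, Psmb8 and Psmb9 lie wholly inside the GENCODE bounds given above. For these genes the bases before the outermost GENCODE start were not searched. Across 32851 RefSeq windows of the same length, 6.31% held the shorter and 2.98% the longer ISRE core (8.82% either), 3.90% held the NF-kB consensus, and 116 windows (0.353%) held the NF-kB consensus with either ISRE core. The core TGACG of the cyclic AMP response element, searched on either strand, was present in the windows of H2-K1, H2-D1, B2m, Tap1 and Psmb9, against 17.8% of all windows. The Tap1 and Psmb9 windows share 225 of their 250 bases, since these genes start 226 bases apart and run in opposite directions, so their matches are not independent. A match describes letters and is not evidence that a factor binds there.

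The authors' values are FPKM, a level per kilobase of gene on their own scale for library size. Whole reads could be recovered from them, and reads in genes numbered 5456069 (6419c5, G-1) to 8891141 (2838c3, vehicle). A count of 0 allows up to 3 reads, or 0.337 to 0.550 RPM (reads set against the total of reads in genes, in the usual scaling) over the libraries. Such floors, and the intervals given below for reads, cover counting error only. All 7 epithelial markers reached 1 FPKM in at least 1 library (Epcam, the lowest, was at 0.284 FPKM in the vehicle library of 2838c3), with summed levels of 3534 to 5964 FPKM under G-1 and 3532 to 6100 FPKM under vehicle. Of 10 haematopoietic markers only Cd68 reached 1 FPKM in any library, the summed level was 2.03 to 3.76 FPKM under G-1 and 0.788 to 2.77 FPKM under vehicle, and Tyrobp was at 0 throughout. Of 7 fibroblast markers none reached 1 FPKM, with sums of 0.405 to 1.05 FPKM under G-1 and 0.433 to 1.11 FPKM under vehicle, and Col1a2, Dcn and Lum were at 0. Of 5 endothelial markers only Cdh5 reached 1 FPKM, with sums of 0.121 to 1.01 FPKM under G-1 and 0.0200 to 1.76 FPKM under vehicle, and Emcn was at 0.

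The 10 genes spanned the range from among the most abundant messages of these cells to nearly none. Of the 15712 genes with any reads, 97.8% had a lower mean level than B2m, 94.7% a lower one than H2-K1, 83.2% a lower one than H2-D1 and 82.6% a lower one than Tapbp. Psmb10 and H2-T23 stood above 73.2% and 64.0% of these genes. The other members were at the bottom, with Tap2 above 30.2%, Psmb8 above 23.8%, Tap1 above 19.5% and Psmb9 above 10.9%. H2-K1, H2-D1, H2-T23, B2m, Tapbp and Psmb10, 6 of the 10, passed the filter of a mean of at least 1 FPKM and entered the tests, while Tap1, Tap2, Psmb8 and Psmb9 did not, with 19, 77, 15 and 1 reads in the 6 libraries together. A bulk level does not tell fewer expressing cells from less RNA per cell.

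**Figure D1:**
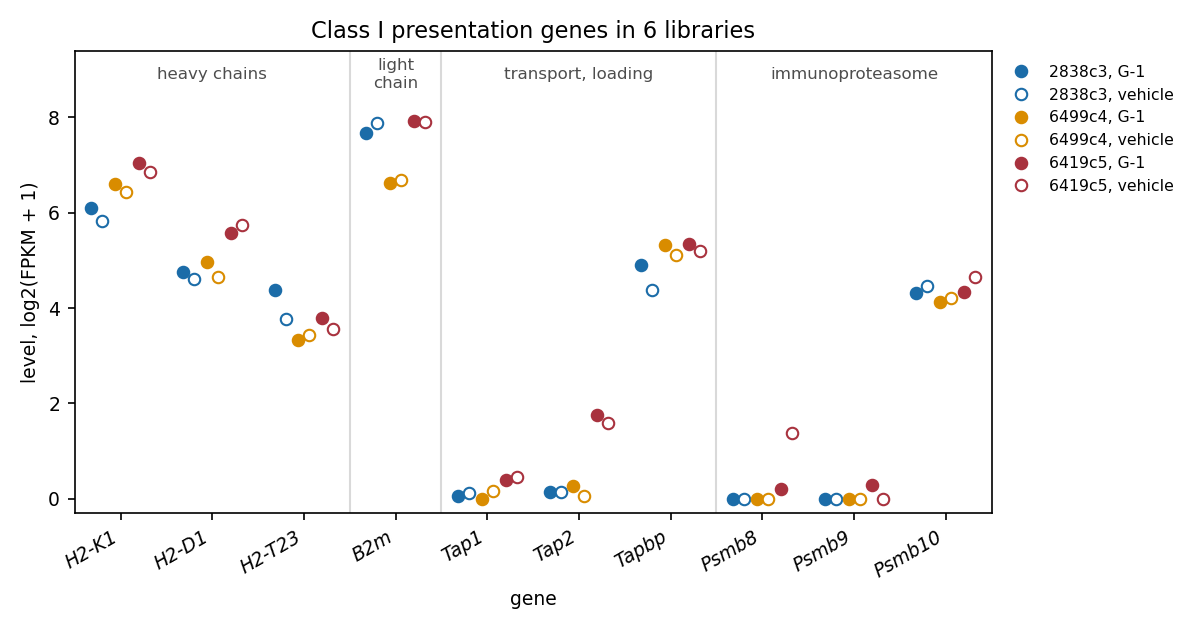
Level of each of the 10 genes as log2(FPKM + 1), 1 point per library, filled for G-1 and open for vehicle, coloured by line and grouped by role. H2-K1, H2-D1, B2m, Tapbp, H2-T23 and Psmb10 lie well above 0 in all 6 libraries, while Tap1 and Psmb9 lie near 0. Psmb8 also lies near 0, except at 1.38 in the vehicle library of 6419c5, and Tap2 is highest in 6419c5.

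Among the heavy chains, H2-K1, a classical molecule that presents peptides to CD8+ T cells, was the most abundant. Its level was 67.7 FPKM (G-1) and 55.9 FPKM (vehicle) in 2838c3, 96.0 and 85.6 FPKM in 6499c4, and 131 and 114 FPKM in 6419c5, in the same order of treatments. The lines did not overlap: both 2838c3 libraries were lowest and both 6419c5 libraries highest. On the log2(FPKM + 1) scale H2-K1 was lower by 0.98 in 2838c3 than in 6419c5 (difference -0.98, SE 0.07, limma adjusted p = 5.45e-05), and lower in 2838c3 than in 6499c4 (difference -0.55, SE 0.07, limma adjusted p = 4.73e-04). It was also lower in 6499c4 than in 6419c5 (difference -0.43, SE 0.07, limma adjusted p = 0.00228), so that all neighbours in the order differed beyond their spread.

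H2-D1, the other classical heavy chain, was at 26.0 FPKM (G-1) and 23.5 FPKM (vehicle) in 2838c3, 30.4 and 24.2 FPKM in 6499c4, and 46.6 and 52.5 FPKM in 6419c5. The 6419c5 libraries stood above all others, and those of 2838c3 and 6499c4 overlapped. The difference was -0.97 (SE 0.12, limma adjusted p = 5.21e-04) between 2838c3 and 6419c5 and -0.84 (SE 0.12, limma adjusted p = 0.00118) between 6499c4 and 6419c5. Between 2838c3 and 6499c4 it was -0.13, with a 95% interval of -0.41 to 0.15 (SE 0.12, limma adjusted p = 0.387). H2-K1 exceeded H2-D1 in every library on this per-length scale, with ratios of 2.61 (G-1) and 2.38 (vehicle) in 2838c3, 3.16 and 3.54 in 6499c4, and 2.82 and 2.17 in 6419c5.

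H2-T23 encodes Qa-1, a non-classical molecule that shows leader peptides of other class I chains to receptors of natural killer cells. It was at 19.7 FPKM (G-1) and 12.6 FPKM (vehicle) in 2838c3, 8.997 and 9.87 FPKM in 6499c4, and 12.8 and 10.7 FPKM in 6419c5. Its order of lines was not that of H2-K1: the G-1 library of 2838c3 was the highest, both 6499c4 libraries were the lowest, and the vehicle library of 2838c3 lay among those of 6419c5. It was higher in 2838c3 than in 6499c4 (difference 0.69, SE 0.17, limma adjusted p = 0.00986). That call was lost without the G-1 library of 2838c3 (limma adjusted p = 0.0941) and without the G-1 library of 6499c4 (0.0835). The difference was 0.40 (SE 0.17, limma adjusted p = 0.0807) between 2838c3 and 6419c5, and it passed the threshold when the vehicle library of 2838c3 was left out (difference 0.67, limma adjusted p = 0.0194) or either library of 6499c4 (limma adjusted p = 0.0336 and 0.0338). Between 6499c4 and 6419c5 it was -0.29 (SE 0.17, limma adjusted p = 0.189), and -0.56 without the vehicle library of 6499c4 (limma adjusted p = 0.0373). H2-T23 rests on the fewest reads of the tested members, 92 to 221 a library. In the annotation, 28.8% of its 50-base windows also occur in transcripts of other genes, the pseudogene H2-T-ps foremost, against 13.9% for H2-D1 and 6.87% for H2-K1, and no source used here says how the authors counted such reads.

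B2m, the invariant light chain that pairs with class I heavy chains, had another order again. It was at 203 FPKM (G-1) and 234 FPKM (vehicle) in 2838c3, 97.0 and 103 FPKM in 6499c4, and 241 and 239 FPKM in 6419c5. Both 6499c4 libraries stood far below the others. The difference was 1.12 (SE 0.08, limma adjusted p = 2.73e-05) between 2838c3 and 6499c4 and -1.26 (SE 0.08, limma adjusted p = 2.41e-05) between 6499c4 and 6419c5. Between 2838c3 and 6419c5 it was -0.14, with a 95% interval of -0.32 to 0.04 (SE 0.08, limma adjusted p = 0.158). Light chain message set against the sum of the 3 heavy chains was therefore uneven over the lines: 1.79 (G-1) and 2.54 (vehicle) in 2838c3, 0.716 and 0.858 in 6499c4, and 1.26 and 1.35 in 6419c5. In 6499c4 there was less B2m than heavy chain message per length in both libraries, and in the other lines there was more.

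Of the loading genes, Tapbp encodes tapasin, which bridges the heavy chain and the TAP transporter. It was at 28.9 FPKM (G-1) and 19.7 FPKM (vehicle) in 2838c3, 39.0 and 33.5 FPKM in 6499c4, and 39.7 and 35.6 FPKM in 6419c5. Both 2838c3 libraries were the lowest, and the other lines overlapped. The difference was -0.64 (SE 0.11, limma adjusted p = 0.00226) between 2838c3 and 6419c5 and -0.58 (SE 0.11, limma adjusted p = 0.00288) between 2838c3 and 6499c4. Between 6499c4 and 6419c5 it was -0.05, with a 95% interval of -0.31 to 0.20 (SE 0.11, limma adjusted p = 0.700), and its sign turned under other scalings.

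Psmb10 encodes MECL-1, the immunoproteasome subunit that takes the place of Psmb7. It was at 19.0 FPKM (G-1) and 21.0 FPKM (vehicle) in 2838c3, 16.4 and 17.6 FPKM in 6499c4, and 19.1 and 24.2 FPKM in 6419c5. These were the narrowest ranges among the tested members, with the 6499c4 libraries lowest. The difference between 6499c4 and 6419c5 was -0.32 (SE 0.10, limma adjusted p = 0.0302), and it was lost in 9 of 14 alternatives (limma adjusted p 0.0262 to 0.214 over the 14), among them the scaling by read totals, at -0.22. Between 2838c3 and 6499c4 the difference was 0.22 (SE 0.10, limma adjusted p = 0.0903), and between 2838c3 and 6419c5 it was -0.10 (SE 0.10, limma adjusted p = 0.405).

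Counted over the comparisons, 3 of the 6 tested members were called between 2838c3 and 6419c5, all lower in 2838c3, where 51.5% of all 10748 tested genes were called, 25.3% higher and 26.2% lower. Between 2838c3 and 6499c4, 4 were called, B2m and H2-T23 higher and H2-K1 and Tapbp lower in 2838c3, against 55.6% of all genes (28.9% higher and 26.6% lower). Between 6499c4 and 6419c5, 4 were called, all lower in 6499c4, against 45% of all genes (21.3% higher and 23.7% lower). Whether the members' shares differ from those of all genes was not tested. Their median log2 difference was -0.39 against 0.00 over all genes between 2838c3 and 6419c5, 0.05 against 0.01 between 2838c3 and 6499c4, and -0.38 against 0.01 between 6499c4 and 6419c5. With libraries scaled by read totals, the split of all calls was 2404 higher and 3674 lower between 2838c3 and 6499c4, in place of 3109 and 2864, and 3096 higher and 2026 lower between 6499c4 and 6419c5, in place of 2291 and 2545. That scaling put the median of all genes at -0.11 and 0.10, and it turned the sign of no member called in these comparisons. The epithelial markers also moved with the line: of 7, 6 were lower and 1 higher in 2838c3 than in 6419c5, 5 lower and 1 higher in 2838c3 than in 6499c4, and 3 lower and 3 higher in 6499c4 than in 6419c5. Their part in the differences of the class I genes was not tested.

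**Figure D2:**
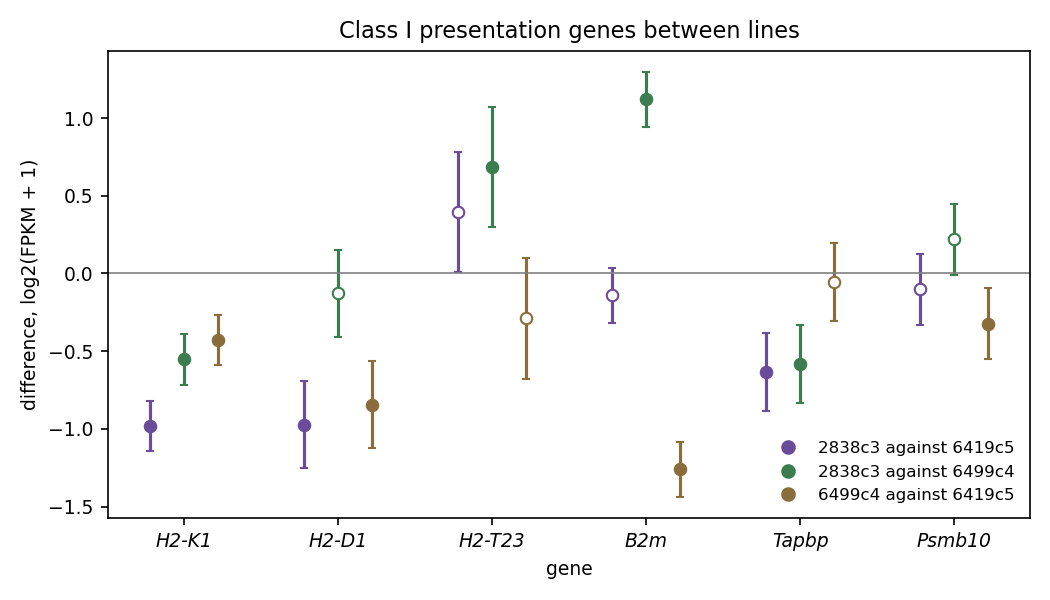
Difference between lines on the log2(FPKM + 1) scale for the 6 tested genes, with 95% intervals from limma, 2 libraries per line, filled where the adjusted p was under 0.05. The points of H2-K1 and H2-D1 lie below 0 in each comparison, B2m lies far from 0 only where 6499c4 is compared, and Tapbp only where 2838c3 is.

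Tap1, Tap2, Psmb8 and Psmb9 are neighbours in the genome and in the table, and all 4 were scarce. Tap2, a subunit of the peptide transporter, was at 0.0941 FPKM (G-1) and 0.0939 FPKM (vehicle) in 2838c3, 0.200 and 0.0439 FPKM in 6499c4, and 2.36 and 2.02 FPKM in 6419c5. In reads these were 2 and 2 in 2838c3, 4 and 1 in 6499c4, and 32 and 36 in 6419c5, so that the libraries of 6419c5 stood apart. Tap1, the other subunit, had 1 read (G-1) and 2 reads (vehicle) in 2838c3, 0 and 3 in 6499c4, and 5 and 8 in 6419c5. Both 6419c5 libraries had the most reads for Tap1 too, and its highest level, 0.380 FPKM in 6419c5 under vehicle, was a small part of that of Tapbp in the same library.

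Psmb8 encodes LMP7, the immunoproteasome counterpart of Psmb5, and Psmb9 encodes LMP2, that of Psmb6. Psmb8 had no reads in the 4 libraries of 2838c3 and 6499c4, and 1 read (G-1) and 14 reads (vehicle) in 6419c5, or 0.150 and 1.60 FPKM. For the vehicle libraries, the count of 0 in 2838c3 and in 6499c4 was set to its floor of 3 reads per library. Against these floors the level in 6419c5 was 5.59-fold that of 2838c3 and 5.98-fold that of 6499c4, with the 14 reads taken as exact. The exact 95% lower limits of these ratios, which also carry the counting error of the 14 reads, were 3.97 and 4.25. Under G-1, with 1 read against 0, the lower limits were 0.0402 against 2838c3 and 0.0378 against 6499c4, both under 1. Psmb9 had a single recovered read in all, in the G-1 library of 6419c5 (0.228 FPKM). With so few values that read may stand for a small multiple, since the gene length it implies is 0.604 of the nearest annotated transcript.

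Summed over these 4 adjoining genes, reads numbered 39 (G-1) and 58 (vehicle) in 6419c5, 3 and 4 in 2838c3, and 4 and 4 in 6499c4. In RPM this was 7.15 and 8.04 in 6419c5, 0.347 and 0.450 in 2838c3, and 0.534 and 0.467 in 6499c4. On the authors' scale the sum in 6419c5 was 20.4 times that in 2838c3 under G-1 (exact 95% interval 6.48 to 103) and 17.4 times under vehicle (6.43 to 65.9). Against 6499c4 it was 14.4 times under G-1 (5.18 to 55.3) and 18.6 times under vehicle (6.88 to 70.5). These ratios rest on 3 or 4 reads in the lower lines, and Tap2 gave most of the reads in 6419c5. When every gene with any reads was tested, 15712 in all, Tap2 was lower in 2838c3 (difference -1.54, limma adjusted p = 0.00152) and in 6499c4 (difference -1.51, limma adjusted p = 0.00161) than in 6419c5. Of all genes, that fit called 5274 between 2838c3 and 6419c5 and 4457 between 6499c4 and 6419c5. Tap1 also passed in that fit (differences -0.34 in 2838c3 and -0.35 in 6499c4, limma adjusted p = 0.0181 and 0.0197), but on 5 and 8 reads in 6419c5 against 0 to 3 elsewhere, 3 of its 4 exact 95% intervals included 1: that of the ratio of 6419c5 to 2838c3 was 0.877 to 371 under G-1 and 0.956 to 46.3 under vehicle, and that to 6499c4 was 0.820 to 20.0 under vehicle. In the same fit Psmb8 did not pass (differences -0.79 and -0.79, limma adjusted p = 0.128 and 0.136). Of the class II genes in the flanking rows, H2-DMb2, H2-Ob, H2-Aa and H2-Eb1 were at 0 in all libraries, and H2-DMb1 and H2-Ab1 reached 0.109 and 0.117 FPKM at most. H2-DMa was at 1.11 FPKM (G-1) and 0.422 FPKM (vehicle) in 6419c5, 0.212 and 0.352 FPKM in 2838c3, and 0 and 0.395 FPKM in 6499c4. Brd2, a chromatin reader outside the class I pathway that stands 4 rows before Psmb9, was at 82.1 to 99.6 FPKM over the 6 libraries.

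**Figure D3:**
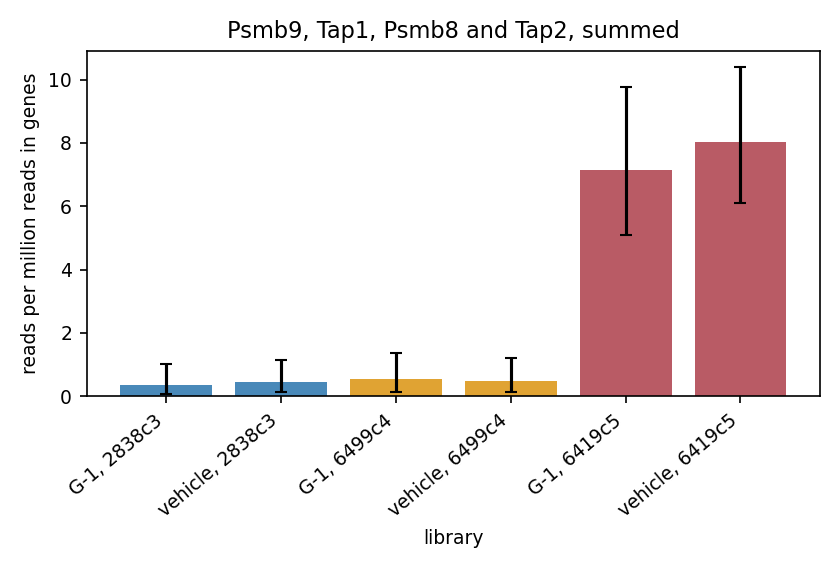
Reads of Psmb9, Tap1, Psmb8 and Tap2 summed, in RPM of the reads in genes, 1 bar per library, with exact Poisson 95% intervals of the counts. The bars of 6419c5 stand at 7.15 (G-1) and 8.04 (vehicle), and the other 4 bars lie between 0.347 and 0.534.

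Set beside the constitutive subunits they replace, the immunoproteasome subunits were the lower ones in every library. Psmb10 amounted to 7.89% (G-1) and 8.27% (vehicle) of the Psmb7 level in 2838c3, 8.24% and 9.47% in 6499c4, and 7.72% and 10.06% in 6419c5, per length. The share was lower under G-1 than under vehicle in each of the 3 lines. Psmb8 amounted to 0.327% (G-1) and 3.43% (vehicle) of Psmb5 in 6419c5 and to 0 in the other libraries, and Psmb9 to 0.130% of Psmb6 in the G-1 library of 6419c5 and to 0 elsewhere. Psmb5, Psmb6 and Psmb7, which carry the catalytic sites of the standard proteasome, were at 46.0 to 79.5, 100.3 to 212 and 186 to 254 FPKM over the 6 libraries.

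**Figure D4:**
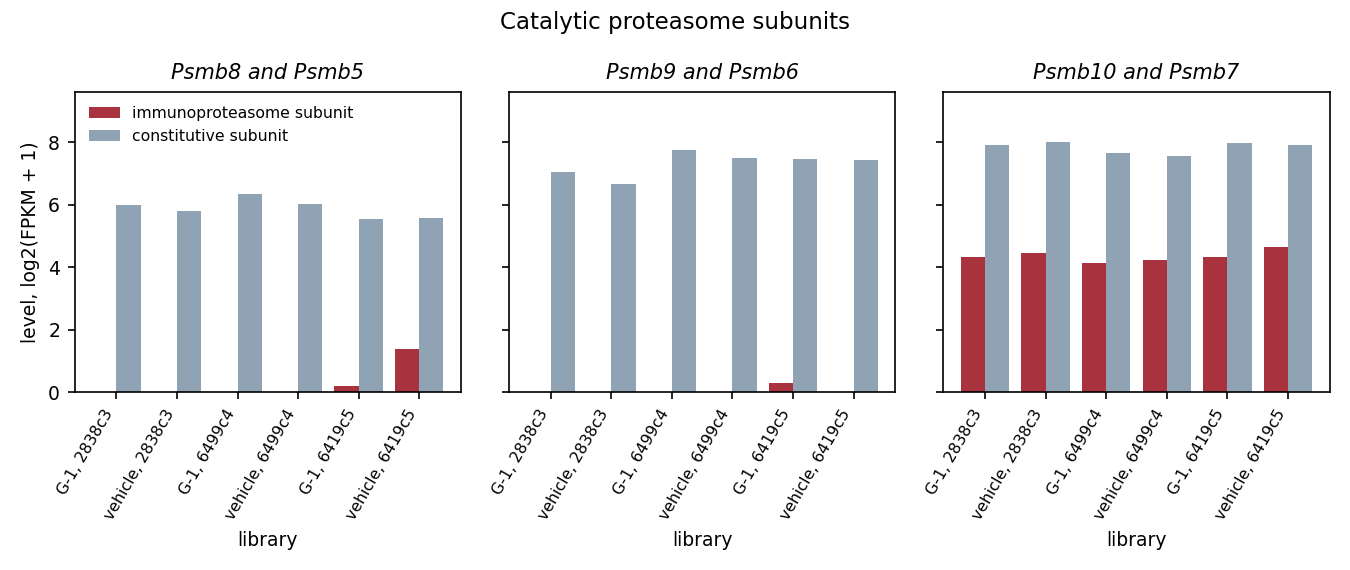
Levels of each immunoproteasome subunit (red) and of the constitutive subunit it replaces (grey), as log2(FPKM + 1), 1 pair of bars per library. Psmb8 and Psmb9 are at 0 in the libraries of 2838c3 and 6499c4, and Psmb10 stands between 16.4 and 24.2 FPKM in every library.

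Whether the GPER agonist changed these genes was asked over the 3 lines, each with its own vehicle library. None of the 6 tested members was called by limma, against 0.0279% of all genes (3 of 10748; 0.0093% higher and 0.0186% lower), and 3 of the 6 had an unadjusted p under 0.05, as had 1081 of all genes. Limma-voom on the recovered reads of genes with a mean of at least 10 reads called 1 of 7 members, Tapbp, and 181 of all 11223 genes (1.61%). H2-K1 and Tapbp were higher under G-1 in all 3 lines and Psmb10 was lower in all 3, directions shared by 15.4% and 17.5% of all tested genes. The median log2 difference of the 6 members was 0.15, against -0.01 over all genes.

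Tapbp had the largest difference of the 6, 0.30 on the log2(FPKM + 1) scale (SE 0.09, limma adjusted p = 0.369, higher in 3 of 3 lines). Its level under G-1 was 1.47 times that under vehicle in 2838c3 (exact 95% interval 1.30 to 1.65), 1.17 times in 6499c4 (1.06 to 1.28) and 1.11 times in 6419c5 (0.996 to 1.24). Without 2838c3 the difference was 0.18. In limma-voom the difference was 0.30 (adjusted p = 0.0473), and over all alternatives the adjusted p ran between that value and 1.00.

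H2-K1 differed by 0.21 (SE 0.06, limma adjusted p = 0.349), with ratios of G-1 to vehicle of 1.21 in 2838c3 (1.10 to 1.33), 1.12 in 6499c4 (1.04 to 1.21) and 1.15 in 6419c5 (1.06 to 1.25). All 3 intervals lay above 1, but they hold counting error and not the spread between cultures. H2-D1 differed by 0.10 (SE 0.10, limma adjusted p = 0.760), with ratios of 1.11 in 2838c3 (0.955 to 1.28), 1.26 in 6499c4 (1.09 to 1.45) and 0.887 in 6419c5 (0.784 to 1.00). For H2-T23 the difference was 0.24 (SE 0.14, limma adjusted p = 0.581), with ratios of 1.56 in 2838c3 (1.26 to 1.94), 0.912 in 6499c4 (0.689 to 1.20) and 1.20 in 6419c5 (0.891 to 1.60). The lines thus went different ways for H2-D1 and H2-T23. Without 2838c3 the difference of H2-T23 was 0.06.

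B2m differed by -0.09 (SE 0.06, limma adjusted p = 0.640), with ratios of 0.870 in 2838c3 (0.811 to 0.933), 0.945 in 6499c4 (0.852 to 1.05) and 1.01 in 6419c5 (0.931 to 1.09). In 2838c3 the intervals of B2m and H2-K1 lay on opposite sides of 1, and the ratio of B2m to the summed heavy chains was lower under G-1 than under vehicle in all 3 lines. That ratio has no interval here, and how often such ratios of other genes share 1 direction was not counted. Psmb10 differed by -0.19 (SE 0.08, limma adjusted p = 0.492), with ratios of 0.906 in 2838c3 (0.747 to 1.10), 0.930 in 6499c4 (0.754 to 1.15) and 0.787 in 6419c5 (0.630 to 0.981). Psmb8 in 6419c5 had 1 read under G-1 and 14 under vehicle, a ratio of 0.0937 (0.00222 to 0.616) that has no replicate. In the same line the ratio was 1.17 for Tap2 (0.701 to 1.93) and 0.820 for Tap1 (0.211 to 2.84), both with intervals that include 1.

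**Figure D5:**
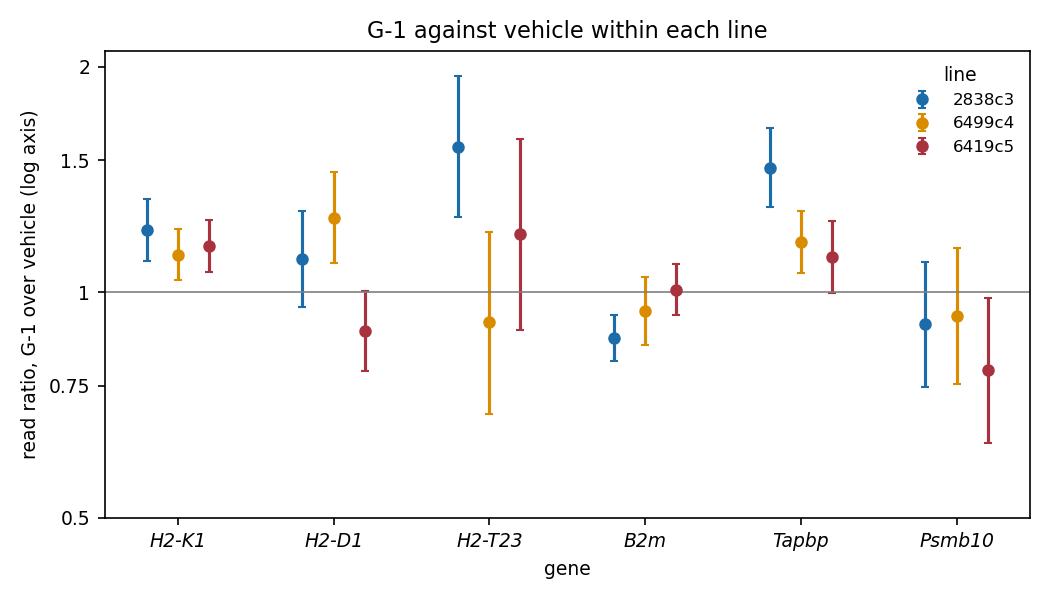
Ratio of G-1 to vehicle within each line for the 6 tested genes, on a log axis, from recovered reads on the authors' scale, with exact 95% intervals for counting error and a line at 1. The intervals of H2-K1 lie above 1 in all 3 lines, while H2-D1 and H2-T23 each have 1 interval above 1 and 2 that include it.

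Genes around these members were read from lists of related function, 103 genes of which 70 passed the level filter. Under G-1, limma called none of the 70, with 7 of 70 at an unadjusted p under 0.05, beside 1081 of all 10748 genes. Limma-voom called 1 of 70, beside 1.61% of all genes: Sec61b, a subunit of the channel through which new chains enter the endoplasmic reticulum. Sec61b differed by 0.53 in limma (adjusted p = 0.0987) and 0.55 in limma-voom (adjusted p = 0.00201). The next in size were Pcgf1, a Polycomb component, at -0.45 (limma adjusted p = 0.51), and Socs1, an inhibitor of interferon signalling, at 0.45 (limma adjusted p = 0.56).

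Other class I genes and class I-like genes were scarce. Of 24 listed, 13 had any reads and 2 passed the filter, both only through their level in 6419c5, so no test between lines is given for them. H2-M3, which presents formylated peptides, was at 0.0822 FPKM (G-1) and 0.656 FPKM (vehicle) in 2838c3, 1.14 and 1.99 FPKM in 6499c4, and 3.48 and 2.85 FPKM in 6419c5. Hfe, a class I-like regulator of iron uptake, was at 0.817 and 1.15 FPKM in 2838c3, 1.09 and 0.507 FPKM in 6499c4, and 3.20 and 1.95 FPKM in 6419c5. Of 9 class II presentation genes, 4 had any reads, none passed the filter, and Ciita, the class II transactivator, was at 0 in all 6 libraries.

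The counts between lines that follow stand beside 51.5% of all genes called between 2838c3 and 6419c5, 55.6% between 2838c3 and 6499c4 and 45% between 6499c4 and 6419c5, and no list was tested against these shares. Of 11 tested chaperones and other genes of class I assembly, 1 was higher and 3 lower in 2838c3 than in 6419c5, 4 higher and 1 lower in 2838c3 than in 6499c4, and 2 higher and 6 lower in 6499c4 than in 6419c5. Tapbpl, a tapasin relative that edits peptides, was lower than in 6419c5 both in 2838c3 (-0.69, limma adjusted p = 0.0040) and in 6499c4 (-0.64, limma adjusted p = 0.0067). Calreticulin (Calr), which holds new heavy chains with B2m, was lower in 6499c4 than in 6419c5 (-0.61, limma adjusted p = 9.5e-04), and so was the chaperone Hspa5 (-0.90, limma adjusted p = 8.0e-05). Calnexin (Canx), which holds heavy chains before B2m joins, was lower in 2838c3 than in 6419c5 (-0.43, limma adjusted p = 0.0023). Sec61b went the other way, higher in 6499c4 than in 6419c5 (0.67, limma adjusted p = 5.3e-04). Against 6499c4, 2838c3 was higher in Calr (0.70, limma adjusted p = 3.3e-04) and Hspa5 (0.62, limma adjusted p = 2.8e-04). It was lower there in Sec61b (-0.65, limma adjusted p = 4.2e-04).

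Of 15 tested transactivators and promoter-binding factors, 3 were higher and 2 lower in 2838c3 than in 6419c5, 5 higher and 2 lower in 2838c3 than in 6499c4, and none higher and 4 lower in 6499c4 than in 6419c5. Nlrc5, the class I transactivator, was under the filter and reached 0.159 FPKM at most, in 6419c5. Irf1, which binds the ISRE, was lower in 2838c3 than in 6419c5 (-0.39, limma adjusted p = 0.023). Of the NF-kB subunits, Rela was higher in 2838c3 than in 6419c5 (0.78, limma adjusted p = 3.8e-04) and than in 6499c4 (0.79, limma adjusted p = 2.7e-04), and Nfkb1 was higher in 2838c3 than in 6499c4 (0.81, limma adjusted p = 1.4e-04) and lower in 6499c4 than in 6419c5 (-0.62, limma adjusted p = 6.9e-04), with a difference of 0.19 between 2838c3 and 6419c5 (limma adjusted p = 0.074).

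Of 10 interferon receptor, kinase and inhibitor genes, 1 was higher and 5 lower in 2838c3 than in 6419c5, 4 higher and 3 lower in 2838c3 than in 6499c4, and 1 higher and 4 lower in 6499c4 than in 6419c5. Ifnar2, a chain of the type I interferon receptor, was lower than in 6419c5 in 2838c3 (-0.89, limma adjusted p = 0.0013) and in 6499c4 (-1.44, limma adjusted p = 1.8e-04). Ifngr2, a chain of the interferon gamma receptor, was lower in the same lines (-0.83, limma adjusted p = 2.9e-04, in 2838c3, and -0.51, limma adjusted p = 0.0033, in 6499c4). Ifngr1, the other chain of that receptor, was higher in 6499c4 than in 6419c5 (0.58, limma adjusted p = 6.7e-04) and differed by -0.19 between 2838c3 and 6419c5 (limma adjusted p = 0.059). Jak2, a kinase of that receptor, was higher in 2838c3 than in 6419c5 (0.90, limma adjusted p = 1.5e-04). Of 6 tested genes known as repressors of class I transcription, 3 were higher and 1 lower in 2838c3 than in 6419c5, 2 higher and none lower in 2838c3 than in 6499c4, and 1 higher and 2 lower in 6499c4 than in 6419c5. Ezh2, the Polycomb methyltransferase, was higher in 2838c3 than in 6419c5 (0.74, limma adjusted p = 2.1e-04) and than in 6499c4 (0.99, limma adjusted p = 4.5e-05). Eed, from the same list, was lower in 2838c3 than in 6419c5 (-0.35, limma adjusted p = 0.030), and Suz12 differed there by -0.08 (limma adjusted p = 0.44).

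Of 3 constitutive catalytic subunits, 1 was higher and 1 lower in 2838c3 than in 6419c5, 1 higher and 2 lower in 2838c3 than in 6499c4, and 1 higher and 1 lower in 6499c4 than in 6419c5. Psmb6 was lower in 2838c3 than in 6419c5 (-0.59, limma adjusted p = 0.0016). Of 14 other core subunits and assembly factors, 3 were higher and 4 lower in 2838c3 than in 6419c5, none higher and 6 lower in 2838c3 than in 6499c4, and 5 higher and 2 lower in 6499c4 than in 6419c5. Of 9 proteasome activators and cytosolic peptidases, 1 was higher and 6 lower in 2838c3 than in 6419c5, 2 higher and 6 lower in 2838c3 than in 6499c4, and 1 higher and 3 lower in 6499c4 than in 6419c5. Thop1, a peptidase that destroys class I peptides in the cytosol, was lower in 2838c3 than in 6419c5 (-0.67, limma adjusted p = 0.0011). Psme1, a subunit of the PA28 activator, was lower in 6499c4 than in 6419c5 (-0.40, limma adjusted p = 0.0039). These counts come from the same libraries as the member values above, and the comparisons between lines share them.

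The members did not vary as 1 block. Across the 6 libraries, which are 2 from each line, the Pearson correlation of log2(FPKM + 1) was 0.90 between H2-K1 and Tapbp, 0.86 between H2-K1 and H2-D1 and 0.79 between B2m and Psmb10. It was 0.00 between H2-K1 and B2m and -0.39 between H2-K1 and H2-T23. The genes whose pattern was most like the mean of the 10 standardised members, out of 3424 with a mean of at least 5 FPKM and an SD of at least 0.3 on the log2 scale over the 6 libraries, were Dnajb11 (Pearson's r 0.998), Lsg1 (0.994), Tbrg1 (0.994), Psmc4 (0.993), Cd55 (0.992) and Creb3l2 (0.992). The mean they follow gives each of the 10 members the same weight, the 4 scarce ones included, and was itself highest in 6419c5, at 0.836 (G-1) and 0.883 (vehicle), so their own peak in that line follows from the choice. Over the 6 tested members alone the mean was 0.669 (G-1) and 0.767 (vehicle) in 6419c5. Dnajb11 was at 66.3 (G-1) and 71.3 FPKM (vehicle) in 6419c5, against 30.6 to 35.2 FPKM in the other 4 libraries.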

How the data were processed

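RNA sequencing gave 1 library for each of 3 cell lines and 2 treatments. The authors deposited FPKM values, a unit taken from the name of their table. The submitters' processing notes name STAR and DESeq2 without saying what each did. Build, annotation, strandedness and counting rule: not given in the sources used here. The deposited FPKM of a gene moved in equal steps, and whole reads (within 0.01 reads) were recovered for all 15712 genes above 0; the library scale had the ratios of median-of-ratios size factors. 27 gene names had turned into dates and 2 were duplicated.

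log2(FPKM + 1) was fitted for 10748 genes (mean level 1 FPKM or more) in limma 3.58.1 (R 4.3.3), with line as block for G-1 and treatment as covariate between lines, moderated variance with trend, 2 residual and 5.35 prior degrees of freedom, two-sided tests, and Benjamini-Hochberg adjustment over all genes at 0.05. Both libraries of a line come from the same cells, so line pairs them; their deviations from the treatment means correlated at 0.906 (2838c3), 0.882 (6499c4) and 0.871 (6419c5). Ratios of reads have exact binomial 95% intervals, and a count of 0 was given a floor of 3 reads. Motifs were searched on both strands of RefSeq windows, and 50-base windows shared with other genes were counted in GENCODE M21 transcripts. The fits and the read recovery were tested on simulated data. The changes simulated for G-1 were larger than those of the tested members and lay in genes with many reads. Power for differences of the members' size, or for the scarce members, was therefore not tested.

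The members, the lists of related genes and the tests were chosen with earlier results of these data known. All members are named with every library's value; from each list, genes with the largest differences past the threshold are named, or the largest where none passed (some listed genes are not reported here), and the 6 genes most like the members' mean among those with a mean of at least 5 FPKM and an SD of at least 0.3 (log2), outside the lists. Alternatives covered the pseudocount, level filter, library scale, variance trend, limma-voom on recovered reads, the blocking terms, GC content and length, and leaving out each line or library.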

Additional observations from a re-analysis of the deposited data

How the results depend on the processing

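Of 324 values of the tested members under the alternatives, 301 kept their direction and side of the threshold, 11 lost it, 5 gained it and 7 changed sign; 15 of 24 results did so nowhere. For G-1, the number of genes called was 3 with the replicate block of cell line, 4 with the block and a GC and length correction, and 0 with no replicate block. It was 1 with a pseudocount of 0.1, 0 with no level filter, 6 at a mean of at least 5 FPKM, 0 without the variance trend, 181 in limma-voom, and 0 to 11 when each line was left out (0 without 6419c5, 11 without 6499c4); members called were 0, and 1 in limma-voom. The paired fit changed no call of a member. Between 2838c3 and 6419c5, members called were 5 of 10 with no level filter, which let in Tap1 and Tap2. That fit called 5274 of all 15712 genes. Leaving out each library gave 3430 to 5677 genes called between 2838c3 and 6419c5 (5533 with all) and 2612 to 4708 between 6499c4 and 6419c5 (4836 with all), the lowest values without a library of 6419c5, where the lone sample is assumed to vary like the others. Signs turned for Tapbp between 6499c4 and 6419c5 (0.049 scaled by read totals, 0.013 with quantile scaling, and -0.166 to 0.056 as each library was left out, with 0.0073 without the G-1 library of 6499c4), for H2-D1 under G-1 (-0.015 to 0.230 as each line was left out, the lowest without 6499c4) and between 2838c3 and 6499c4 (-0.295 to 0.039 as each library was left out), and for Psmb10 between 2838c3 and 6419c5 (-0.209 to 0.0033). The cause was not tested. Depth limits Tap1, Tap2, Psmb8 and Psmb9, which have at most 36 reads in a library.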
